A study of Mus musculus with 4 samples.

Results

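The genes of cholesterol synthesis, of its control by the SREBP transcription factors and of sterol transport and export were followed in cultured mouse fat cells in which a hairpin was directed at Trpv4, the gene of a cation channel that admits calcium. Membership was set by name: a list of 31 genes, of which 27 were read by at least 1 probe set whose annotation names exactly that gene. These 27 genes had 52 probe sets, out of 12393 genes and 22626 probe sets in the whole table. Acat2, Insig1, Soat1 and Nr1h2 were on the list but had no such probe set and are not analysed here.

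The cells were 3T3-F442A, an established mouse line of preadipocytes. The cells of all 4 arrays carried a retroviral hairpin. They had been infected overnight and selected in puromycin (2 µg/ml, 2 days), and were grown in DMEM with 10% FBS. Differentiation ran for 8 days in 850 nM insulin, with rosiglitazone, a PPARγ agonist, during the first 2 days. The control group carried shGFP (2 arrays) and the other group shTRPV4 (2 arrays), the hairpin meant to lower Trpv4. Both groups are therefore selected, infected, rosiglitazone-treated fat cells, and the labels do not say if the 2 arrays of a group stem from separate infections or cultures. The p-values then cover the spread from array to array and no more, and that spread may be technical.

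Cells make cholesterol from acetyl-CoA by way of mevalonate, activated isoprene units, squalene and lanosterol. Most enzymes of the route are induced by SREBP2, the product of Srebf2. That factor is held in the endoplasmic reticulum by Scap and the Insig proteins while membrane sterol is plentiful, and released for cleavage when it is scarce. Sterol excess is sensed by the liver X receptors (LXRs), which bind oxysterols and switch on exporters such as Abca1 and Abcg1. Fat cells hold much of the body's free cholesterol, in their membranes and around the lipid droplet.

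Intensities are the submitters' processed values, on a linear scale. Differences are shTRPV4 minus shGFP in quantile normalized log2(intensity + 16), a scale that makes differences of dim readings look smaller. Where a gene has several probe sets, its brightest over the 4 arrays stands for it. "Rose" or "fell" is used where limma's adjusted p (Benjamini-Hochberg over all 22626 probe sets) was under 0.05.

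Trpv4 itself was not measurably lower: its probe set read 43.7 and 93.8 on the shGFP arrays and 80.1 and 79.5 on the shTRPV4 arrays, a difference of 0.32 (95% interval -0.55 to 1.19, limma adjusted p = 0.55). The knockdown thus could not be checked here, and the groups are those labelled shGFP and shTRPV4 throughout. The adipocyte markers Fabp4, Lpl and Adipoq read between 11785 and 19625 on all arrays. In the same comparison 5 of 12 adipocyte markers rose and 0 fell (7 higher and 0 lower at an unadjusted p under 0.05). For the 12 genes that mark preadipocytes or fibroblasts, the median difference was -0.81 and 11 differences were negative, with 7 past the threshold. The differences ran from -2.35 (Sfrp2) to 0.11 (Vim). The summed intensity of the 12 was 70776 and 73712 on the shGFP arrays against 58011 and 59702 on the shTRPV4 arrays. That sum understates the typical shift, because bright genes such as Col1a2 (-0.00089) and Vim weigh most in it. Of 13 macrophage markers 3 fell and 1 rose, with sums of 995.9 and 1111 against 705.9 and 673.7. Of the defining macrophage genes Ptprc, Cd163, Fcgr1 and Marco read below 16 on every array, while Adgre1 read 70.5 to 94.0 over the 4 arrays and Csf1r 106.5 and 128.9 on the shGFP arrays against 60.5 and 47.8 on the shTRPV4 arrays. The brightest of the list was Cd14, at 460.8 and 469.8 against 242.1 and 204.4. Lyz2 fell as well, at 235 and 271 against 63.8 and 42.8. Cd68 was the marker that rose, at 41.1 and 66.7 against 154 and 182. The rest, Itgam, Mrc1, Aif1 and Tyrobp, read between 9.0 and 36.1 and did not pass. None of 6 endothelial markers passed (2 higher and 0 lower at an unadjusted p under 0.05). Over all 12393 genes 5.33% rose and 6.00% fell, and 2215 were higher and 1887 lower at an unadjusted p under 0.05. The part of these marker shifts in the results on sterol genes was not tested, and in bulk RNA fewer cells of a type and less RNA per cell cannot be told apart.

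Of the 27 genes 4 rose and 0 fell, and the differences of 22 were positive (median over the 27, 0.29 on the log2 scale). The 4 were Pmvk, Mvk, Fdft1 and Cyp51, all synthesis enzymes, and on 1 of its 3 probe sets Scarb1, the receptor for high-density lipoprotein, rose as well. At an unadjusted p under 0.05 there were 8 higher and 0 lower, against 2215 higher and 1887 lower of all 12393 genes. Over all 12393 genes 5.33% rose and 6.00% fell, the median difference was 0.02 and 53.5% had a positive difference. All 27 sterol genes read above the median probe set, as did 6817 genes in all, of which 7.98% rose and 8.45% fell. Among the 27, 17 (63.0%) had both shTRPV4 arrays above both shGFP arrays, against 33.2% of all genes and 42.6% of the genes above the median. For 2 both were below, against 27.7% and 33.4%. Leaving out any 1 array, adding replicate as a block, or an offset of 1 in place of 16 left 0 of the 27 called by limma, and ended the Scarb1 call. At an unadjusted p under 0.05 the block had 13 of them higher and the offset of 1 had 7, both with 0 lower. In these fits, in the same order, 6858 and 6359 of all 22626 probe sets were under that level in either direction.

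**Figure D1:**
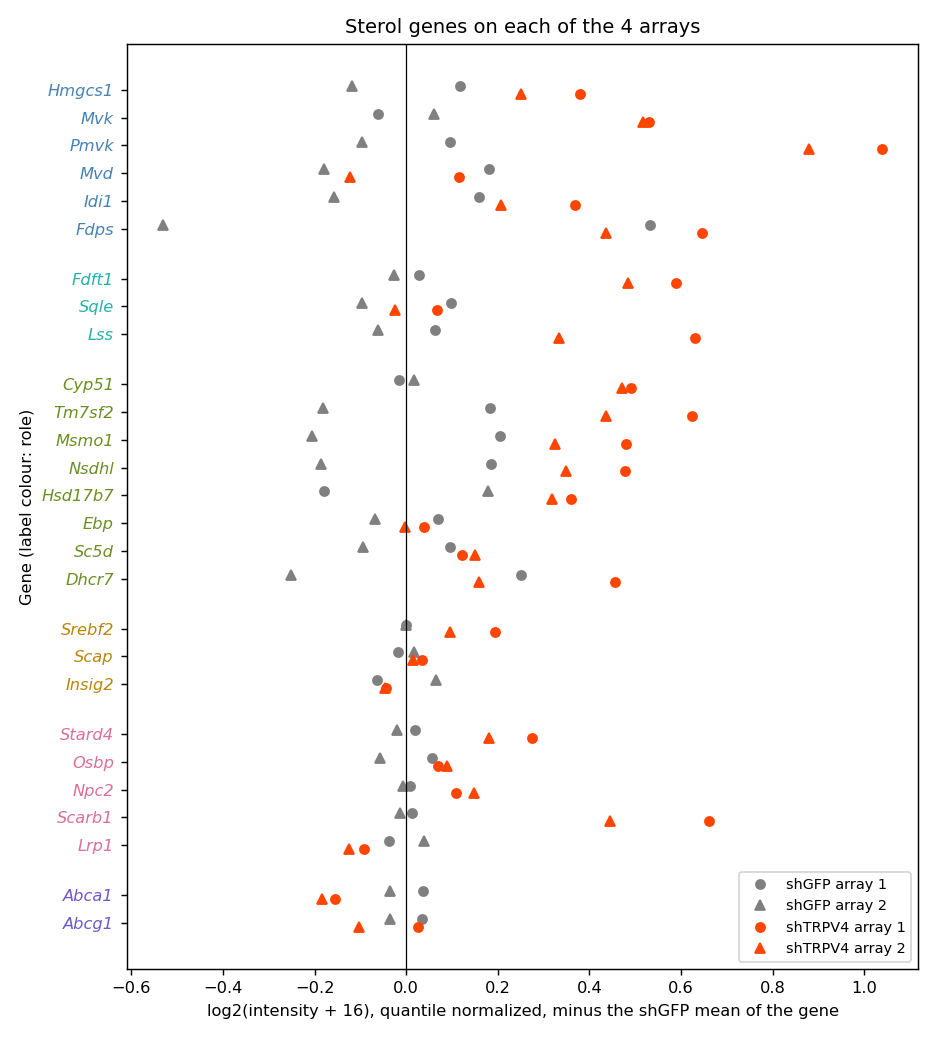
Quantile normalized log2(intensity + 16) of each sterol gene on each array (x axis), set to 0 at the mean of the 2 shGFP arrays, 1 row per gene grouped by role; circles are array 1 and triangles array 2 of each group. The 17 genes with both shTRPV4 points to the right of both shGFP points include 12 of the 17 synthesis enzymes, and the shGFP arrays lie far apart for Fdps.

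The first steps join acetyl units into mevalonate and then phosphorylate and decarboxylate it. Pmvk, which adds the second phosphate to mevalonate, had the largest difference of all 27 genes. It read 175.3 and 160.6 on the shGFP arrays and 339.9 and 311.1 on the shTRPV4 arrays. The groups were well apart, and the difference was 0.96 (SE 0.11, 95% interval 0.65 to 1.27, limma adjusted p = 0.028), a 1.95-fold rise on this scale.

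Mvk, the kinase of the step before, read 128.3 and 146.7 on the shGFP arrays and 188.6 and 196.1 on the shTRPV4 arrays. The groups did not overlap, and Mvk rose by 0.52 (SE 0.08, limma adjusted p = 0.038). Its dimmer probe set differed by 0.37 and did not pass (adjusted p = 0.14). The Mvk call was lost with the values as deposited (0.44, adjusted p = 0.072).

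The other genes of this segment did not pass. Hmgcs1, the synthase that commits acetyl units to the pathway, averaged 3980 ± 356.8 and 4997 ± 237.6 (SD, n = 2), a difference of 0.31 (95% interval -0.01 to 0.64). All 4 of its probe sets had positive differences, from 0.30 to 0.49, and on each of them the shTRPV4 arrays lay above the shGFP arrays. Idi1, which isomerises the activated isoprene unit, differed by 0.29 and 0.49 on its 2 probe sets. Mvd, the decarboxylase that ends the mevalonate segment, read 171.1 ± 25.6 and 160.2 ± 17.3, with overlapping groups and a difference of -0.0037 (95% interval -0.48 to 0.47).

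Fdps, which joins isoprene units into farnesyl diphosphate, could not be placed; it is singled out because of its spread. It read 1152 and 569.3 on the shGFP arrays and 1220 and 1098 on the shTRPV4 arrays. The first shGFP array lay within the range of the shTRPV4 arrays and the second far below it, so the difference of 0.54 had a 95% interval from -0.59 to 1.67. It was 0.0081 without shGFP replicate 2 and 1.07 without shGFP replicate 1.

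From farnesyl diphosphate, squalene synthase, the product of Fdft1, takes the first step that leads only to sterols. Fdft1 read 563.3 and 572.0 on the shGFP arrays and 822.1 and 794.1 on the shTRPV4 arrays. It rose by 0.54 (SE 0.07, limma adjusted p = 0.037). The representative probe set is of the _x_at kind, which can read related transcripts. A second one without that limit also rose: 392.4 and 365.0 against 563.0 and 543.3, a difference of 0.58 (SE 0.10, adjusted p = 0.046). The remaining 2 Fdft1 probe sets read below 17 on every array and 1 of them is listed at exactly 1 on all 4, so averaging the 4 lost the call (0.29, adjusted p = 0.16).

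Sqle, the epoxidase that follows and a rate-limiting step of the sterol branch, averaged 566.1 ± 32.1 and 555.7 ± 15.4, with overlapping groups and a difference of 0.02 (95% interval -0.26 to 0.30). Its sign turned with the values as deposited (-0.025). Lss, the cyclase that makes lanosterol, read 221.1 ± 6.19 and 302.4 ± 40.3. The groups did not overlap, but the difference of 0.48 (95% interval 0.11 to 0.86) did not pass (limma adjusted p = 0.11). The genes on either side of Sqle in the route therefore had differences of 0.54 and 0.48, and Sqle itself 0.02; these were not tested against each other.

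The last segment trims and rearranges lanosterol to cholesterol. Cyp51, the lanosterol demethylase, read 149.1 and 160.8 on the shGFP arrays and 207.6 and 212.7 on the shTRPV4 arrays. The groups were clearly apart on this probe set, and Cyp51 rose by 0.48 (SE 0.06, limma adjusted p = 0.034). Its other probe sets, both dimmer, did not follow: they differed by 0.08 (adjusted p = 0.57) and -0.19 (adjusted p = 0.45). Averaged over the 3, Cyp51 did not pass (0.12, adjusted p = 0.36), and the call was also lost with the values as deposited (0.40, adjusted p = 0.065).

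All 8 genes of this segment had positive differences, and Cyp51 was the member that passed. Tm7sf2, a sterol reductase, differed by 0.53 (95% interval 0.07 to 0.99), from 279.6 ± 41.9 to 392.1 ± 31.4. Nsdhl and Msmo1, which act together in removing methyl groups, differed by 0.41 and 0.40, and Hsd17b7, their partner reductase, by 0.34. Dhcr7, the reductase that completes cholesterol, differed by 0.31 with overlapping groups, Sc5d, a desaturase, by 0.14, and Ebp, an isomerase, by 0.02. The sign for Ebp turned with the values as deposited (-0.028).

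**Figure D2:**
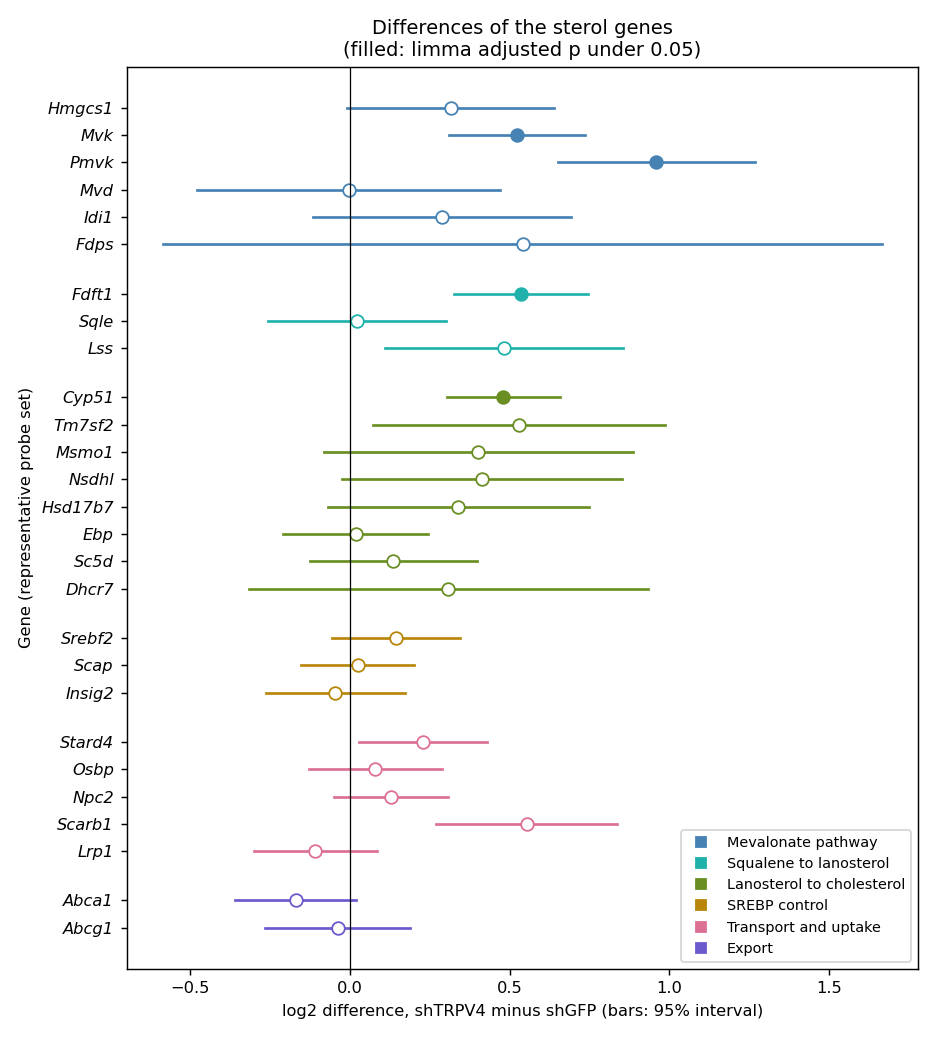
Log2 difference, shTRPV4 minus shGFP, of the representative probe set of each sterol gene (points; bars are 95% intervals from limma), coloured by role; filled points passed at an adjusted p under 0.05. The 4 filled points are Mvk, Pmvk, Fdft1 and Cyp51, and the widest interval is that of Fdps.

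Taken by segment, 2 of 6 mevalonate genes, 1 of 3 genes from squalene to lanosterol and 1 of 8 later genes rose. The median differences were 0.42, 0.48 and 0.37. With 1 or 2 calls each, these counts do not separate the segments. Over the 17 synthesis enzymes 23.5% rose, none fell and 16 had a positive difference (median 0.40). Of all genes 5.33% rose and 6.00% fell, and of those above the median probe set 7.98% and 8.45%. The 12 adipocyte markers moved by a like amount on the same arrays: 41.7% rose, none fell and the median was 0.40. Both shTRPV4 arrays lay above both shGFP arrays for 8 of these markers (66.7%) and for 12 of the synthesis enzymes (70.6%). A shift of this size was therefore not particular to the synthesis enzymes. None of the 10 genes of control, transport and export passed on its representative probe set (median 0.05). Of these 10, 2 were higher and 0 lower at an unadjusted p under 0.05, against 2215 and 1887 of all 12393 genes. No test of the difference between these groups of genes was made.

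The synthesis enzymes also shared their order between arrays of the same label. In 14 of the 17 the first shGFP array read above the second (82.4%, against 48.5% of all genes), and in 16 the first shTRPV4 array read above the second (94.1%, against 47.8%). Among the 10 genes of control, transport and export the same order held for 6 between the shGFP arrays (60%). Between the shTRPV4 arrays it held for 8 of them (80%). The median gap between the shGFP arrays was 0.19 for the 17 enzymes and -0.0030 over all genes. For Tm7sf2, Msmo1, Nsdhl and Dhcr7 that gap was 0.37, 0.41, 0.37 and 0.50, beside differences between the groups of 0.53, 0.40, 0.41 and 0.31. In Pmvk, Mvk, Fdft1 and Cyp51 it was 0.19, -0.12, 0.05 and -0.03. Without shGFP replicate 2 the median difference over the 27 genes was 0.13, without shTRPV4 replicate 1 it was 0.18, and without the other two in turn 0.25 and 0.36.

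Promoter windows of 250 bases before to 50 bases after the annotated start were read from RefSeq sequence (GRCm38.p6) for the members that passed, to show which known control motifs their starts carry. The table held a window for 21 of the 27 measured genes. Of the genes with a probe set past the threshold, Mvk, Pmvk and Cyp51 were in it and Fdft1 and Scarb1 were not. The windows were searched on both strands for the sterol response element TCACNCCAC, for the CCAAT box (CCAAT) bound by NF-Y, a usual partner of SREBP, for the Sp1 box (GGGCGG) and for the E-box (CACGTG). Below, capitals mark these motifs, none of which overlap, and each sequence runs 5′ to 3′ on the strand of the gene: Mvk at chr5:114444019-114444318 (+), Pmvk, the first of its 2 starts, at chr3:89454291-89454590 (+), and Cyp51 at chr5:4104648-4104947 (-).
Mvk: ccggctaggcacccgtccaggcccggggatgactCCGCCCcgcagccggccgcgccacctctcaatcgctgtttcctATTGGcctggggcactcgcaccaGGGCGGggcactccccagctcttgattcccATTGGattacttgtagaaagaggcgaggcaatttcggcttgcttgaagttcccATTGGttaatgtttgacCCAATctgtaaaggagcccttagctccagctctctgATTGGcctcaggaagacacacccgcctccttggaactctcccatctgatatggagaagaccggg
Pmvk: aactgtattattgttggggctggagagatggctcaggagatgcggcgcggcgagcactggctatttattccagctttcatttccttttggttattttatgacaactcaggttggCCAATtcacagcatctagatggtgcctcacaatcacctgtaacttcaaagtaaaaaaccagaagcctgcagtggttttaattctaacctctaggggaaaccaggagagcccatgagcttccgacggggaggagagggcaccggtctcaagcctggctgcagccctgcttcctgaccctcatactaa
Cyp51: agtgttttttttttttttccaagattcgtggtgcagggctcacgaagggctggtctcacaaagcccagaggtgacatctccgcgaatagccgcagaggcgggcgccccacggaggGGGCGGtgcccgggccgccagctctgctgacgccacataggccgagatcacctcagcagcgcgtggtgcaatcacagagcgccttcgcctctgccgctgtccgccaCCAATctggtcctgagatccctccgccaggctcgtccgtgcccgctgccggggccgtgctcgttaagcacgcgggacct
The Mvk window holds 5 CCAAT boxes and 2 Sp1 boxes, Cyp51 1 of each and the first Pmvk window 1 CCAAT box; the window at the other Pmvk start holds none of the 4 motifs. The exact sterol response element was found for 1 of the 21 genes, Hmgcs1, which did not pass. It begins at position -137 from the start, and the stretch at chr13:119690204-119690232 (+) is shown because it is the only match, with the element in capitals.
Hmgcs1: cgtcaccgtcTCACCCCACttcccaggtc
Among all 27025 genes with a window, 1.44% have that element in a window of this length. Counting a gene that has the motif in any of its windows, CCAAT boxes were present for all 14 measured synthesis enzymes in the table, those that did not pass such as Mvd and Ebp included, against 41.1% of all genes. An Sp1 box was present for 13 of the 14 (38.2% of all genes) and an E-box for 3 (8.09%). Over all 21 measured genes with a window, a CCAAT box was present for 18, an Sp1 box for 20 and an E-box for 5. These motifs were thus not confined to the synthesis enzymes. The window of Acat2, a listed enzyme with no probe set here, holds no CCAAT box. A match describes letters in a window and shows neither binding nor use. Variants of the sterol response element were not searched, so a missing match does not show that a gene lacks such an element.

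Neither Srebf2 nor the regulators of its product passed. Srebf2 differed by 0.14 on its brighter probe set (95% interval -0.06 to 0.34) and by 0.40 on the other (170.1 ± 3.46 against 218.1 ± 8.45, limma adjusted p = 0.071), and on both the shTRPV4 arrays lay above the shGFP arrays. Scap, the escort that carries SREBP2 to the Golgi, averaged 912.5 ± 49.7 and 908.1 ± 18.1 (0.02, 95% interval -0.15 to 0.20; -0.0060 with the values as deposited). Insig2, which retains Scap in the endoplasmic reticulum, read 1246 and 1406 on the shGFP arrays and 1235 and 1276 on the shTRPV4 arrays. The groups overlapped, and the difference was -0.05 (95% interval -0.26 to 0.17). Its other probe sets differed by 0.01 and 0.07.

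Among transport and uptake genes the exception was Scarb1, a surface receptor through which cells exchange cholesteryl ester and cholesterol with high-density lipoprotein. All 3 of its probe sets had positive differences. The one that passed read 493.0 and 526.8 on the shGFP arrays and 820.6 and 793.6 on the shTRPV4 arrays, a difference of 0.69 (SE 0.07, limma adjusted p = 0.025). The brightest read 1496 and 1519 against 2312 and 2053 (0.55, adjusted p = 0.054) and the third 1113 and 1052 against 1765 and 1569 (0.65, adjusted p = 0.0503). The groups did not overlap on any of the 3. Those that missed the threshold are of the _x_at kind. Averaged over its probe sets Scarb1 rose (0.63, adjusted p = 0.030).

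Stard4, a cytosolic carrier of cholesterol, differed by 0.23 (95% interval 0.03 to 0.43, limma adjusted p = 0.13), and its dim second probe set by -0.05. Npc2, which hands cholesterol out of the lysosome, averaged 10258 ± 148.9 and 11689 ± 497.7 (0.13, 95% interval -0.05 to 0.31). Osbp, which moves sterol between membranes, differed by 0.08, and the endocytic receptor gene Lrp1 by -0.11 (95% interval -0.30 to 0.08). The intervals of Npc2, Osbp and Lrp1 included 0.

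The exporters had negative differences on all their probe sets, as did Mvd and Lrp1 and no other member. Abca1, which loads cholesterol onto lipid-poor apolipoprotein, read 5967 and 5806 on the shGFP arrays and 5333 and 5372 on the shTRPV4 arrays. The groups did not overlap, but the difference of -0.17 (SE 0.07, 95% interval -0.36 to 0.02) did not pass (limma adjusted p = 0.19). The dimmer Abca1 probe sets differed by -0.14 and -0.28 (adjusted p = 0.29 and 0.087), again with both shTRPV4 arrays below both shGFP arrays. Abcg1, which passes cholesterol to high-density lipoprotein, read 3233 and 3164 on the shGFP arrays and 3198 and 3001 on the shTRPV4 arrays. These overlapped (-0.04, 95% interval -0.27 to 0.19), and the sign turned with median centring (0.051).

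**Figure D3:**
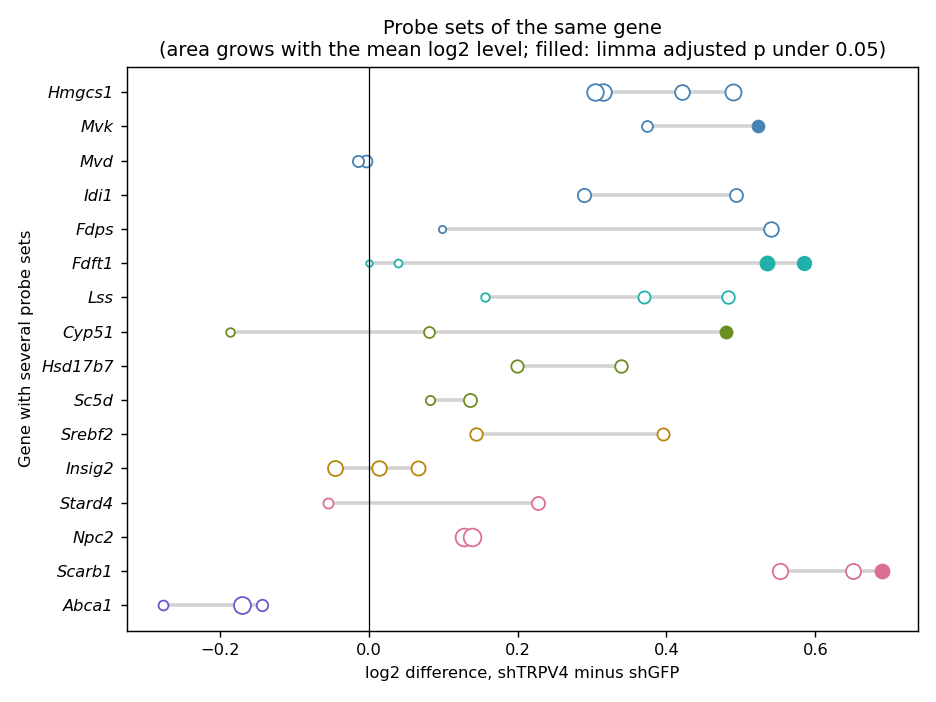
Log2 difference, shTRPV4 minus shGFP, of every probe set (points) of the 16 sterol genes that have several; point area grows with the mean log2 level and filled points passed at a limma adjusted p under 0.05. The probe sets of 13 genes share 1 sign, leaving aside a Fdft1 probe set at 0, and those of Cyp51, Insig2 and Stard4 do not.

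Over all 52 probe sets of the 27 genes 6 rose (11.5%) and 0 fell, against 4.54% higher and 5.36% lower among all probe sets. At an unadjusted p under 0.05, 15 were higher and 1 lower, against 3692 and 3236 of all 22626 probe sets. Of the 16 genes with several probe sets 13 had all of them on 1 side of 0, a probe set at 0 left aside. Those with mixed signs were Cyp51, Insig2 and Stard4, and no gene had probe sets past the threshold in opposite directions.

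Other genes of sterol metabolism were taken from 2 lists. Of 10 measured genes of synthesis and SREBP control outside the 27, 1 rose and 1 fell (median 0.06), or 10.0% each way against 5.33% higher and 6.00% lower over all genes. Fads1, a fatty acid desaturase that is also an SREBP target, read 1119 and 1034 on the shGFP arrays and 2066 and 1924 on the shTRPV4 arrays (0.92, SE 0.10, limma adjusted p = 0.028). Erlin1, a membrane protein of the endoplasmic reticulum that takes part in sterol-dependent protein degradation, fell from 856.5 ± 30.6 to 511.5 ± 10.7 (-0.68, SE 0.08, adjusted p = 0.030). Averaged with its second probe set, which reads near 16, Erlin1 did not pass (-0.37, adjusted p = 0.13).

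Of 28 measured genes of sterol transport, oxysterols and LXR, 5 rose and 2 fell (median 0.22). These are 17.9% and 7.14%, against 5.33% and 6.00% over all genes, so the share that fell was near that of all genes. Those that rose included Nr1h3, which encodes LXRα, and Mylip and Lpcat3, both known LXR targets. Nr1h3 read 87.3 and 85.3 on the shGFP arrays and 140.2 and 133.0 on the shTRPV4 arrays (0.66, SE 0.08, limma adjusted p = 0.028). Mylip, a ubiquitin ligase for lipoprotein receptors, went from 918.0 ± 136.9 to 1777 ± 225.2 (0.96, SE 0.13, adjusted p = 0.035). Lpcat3, a phospholipid acyltransferase, went from 1946 ± 15.0 to 3013 ± 16.7 (0.65, SE 0.06, adjusted p = 0.023). Abca1 and Abcg1, targets of the same receptors, had differences of -0.17 and -0.04 on the same arrays.

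The others that rose were Lrpap1, the chaperone of Lrp1 and related receptors (0.45, SE 0.07), on 2 of its 4 probe sets, and Npc1, the lysosomal membrane partner of Npc2 (0.42, SE 0.07). Both calls were lost with the values as deposited (limma adjusted p = 0.054 and 0.10). Cyp7b1, a hydroxylase that degrades oxysterols, had the largest difference of either list. It read 405.9 and 355.8 on the shGFP arrays and 53.9 and 72.2 on the shTRPV4 arrays and fell by 2.28 (SE 0.17, adjusted p = 0.018). Its other probe set fell by 2.05 (adjusted p = 0.016). Lipa, the lysosomal lipase that frees cholesterol from its esters, fell by 0.64 (SE 0.09, adjusted p = 0.039). That call was lost with the values as deposited (adjusted p = 0.052) and with its 3 probe sets averaged (adjusted p = 0.19). None of the calls in these 2 lists held with a replicate block or with any 1 array left out, and Cyp7b1 alone held with an offset of 1.

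**Figure D4:**
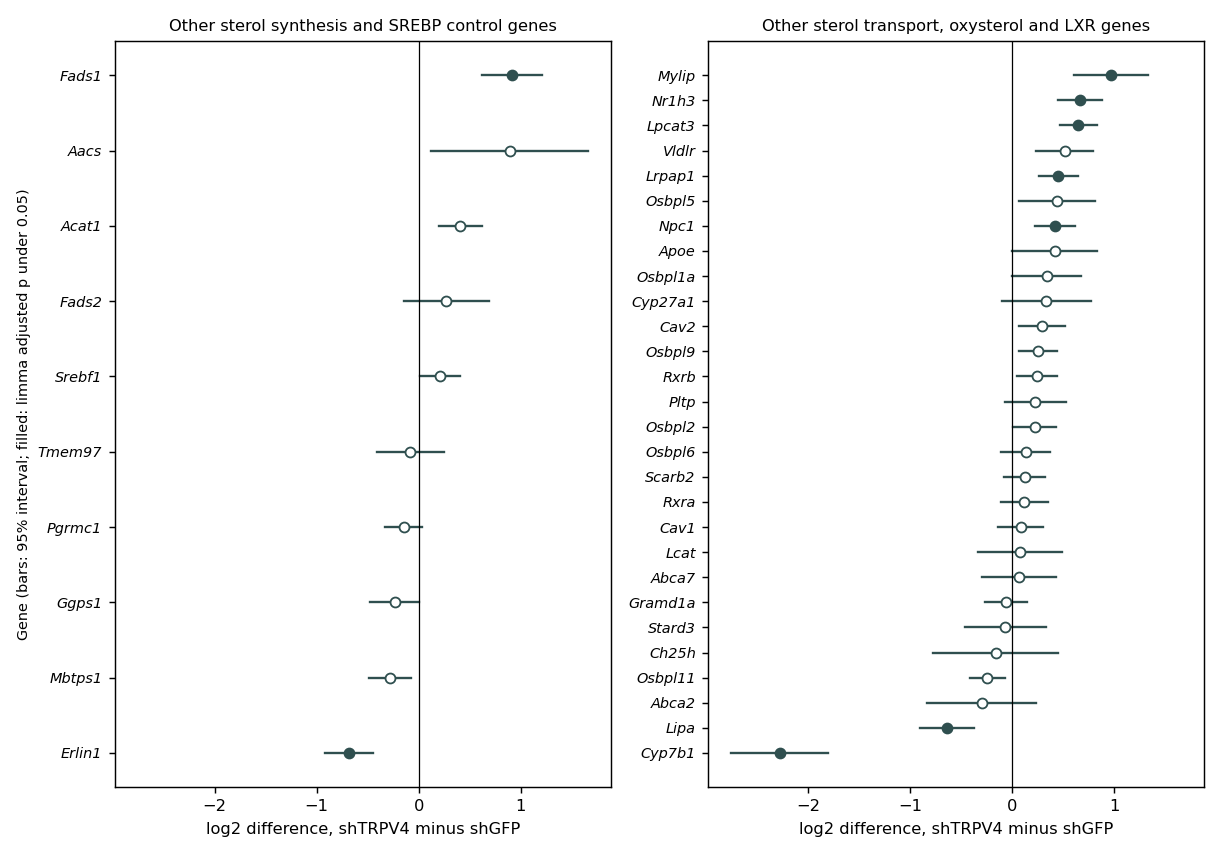
Log2 difference, shTRPV4 minus shGFP, with 95% intervals (bars) for the 10 other genes of sterol synthesis and SREBP control (left) and the 28 other genes of sterol transport, oxysterols and LXR (right), each ordered by size; filled points passed at a limma adjusted p under 0.05. Fads1 and Erlin1 are filled on the left, and on the right Mylip, Nr1h3, Lpcat3, Lrpap1, Npc1, Lipa and Cyp7b1, the last far below the rest at -2.28.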

How the data were processed

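RNA of differentiated 3T3-F442A cells was measured on 4 Affymetrix mouse arrays (2 shGFP, 2 shTRPV4). The deposited table gives an intensity on a linear scale for each probe set on each array. How the authors summarised and scaled it is not given in the sources used here. Array medians ran from 129.4 to 144.0. No detection calls were used, so the background level is unknown, and the number of arrays limits the precision.

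Intensities were taken as log2(intensity + 16). Their medians spanned 0.14, above the limit of 0.1, so the arrays were quantile normalized. The fit was limma 3.58.1 in R 4.3.3 (lmFit, eBayes, no trend) over all 22626 probe sets, with 2 residual and 1.80 prior degrees of freedom, tested on simulated data; calls needed a Benjamini-Hochberg adjusted p under 0.05. Intervals are 95% intervals of that fit. Genes came from the platform annotation (20380 probe sets with 1 symbol, 691 with several, 1555 unnamed here). The gene IDs of 20351 probe sets matched RefSeq, GRCm38.p6, and 0 symbols changed. All measured members are named, and from the 2 further sterol lists those past the threshold. Members and lists were chosen with earlier results of these data known. Alternatives changed the scaling, offset, filter, variance trend, choice of probe set, replicate block and arrays.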

Additional observations from a re-analysis of the deposited data

How the results depend on the processing

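The count of 4 sterol genes called higher was 2 with the values as deposited, 0 with an offset of 1 and 10 without probe sets under the 50th percentile, and 0 with a replicate block or with any 1 array left out. It was 3 to 5 under the other settings, and 0 fell under any setting (0 or 1 lower at an unadjusted p under 0.05). The 6 probe sets called higher became 0 with an offset of 1, 11 with an offset of 64 and 11 and 16 without those under the 25th and 50th percentile, and 0 with any array left out. The 2240 probe sets called in the whole table became 606 and 4116 with offsets of 1 and 64, 4059 and 4874 with those filters, 4150 with an intensity trend, and 0 with any array left out (4543 to 5908 at an unadjusted p under 0.05). With 1 array left out the lone array is assumed to vary like the other group. The split of calls in the whole table was 1027 higher and 1213 lower, but 600 and 1161 with the values as deposited and 1662 and 1141 with median centring. The filters at the 25th and 50th percentile left 16969 and 11313 probe sets to test. Of these, 2084 and 2642 were called higher and 1975 and 2232 lower, so the larger sterol counts there stand beside more calls among fewer probe sets. The median difference of 0.29 ranged from 0.13 to 0.36 with 1 array left out. The 19 genes without overlap were 17 to 19 under the settings that keep all 4 arrays. With 1 array left out they were 20 to 25, but a lone array set against 2 separates more easily. Those counts cannot be compared with the 19, and the share over all genes was not taken there. A replicate block in the limma fit gave 0 sterol genes, 0 of their probe sets and 0 probe sets in all (6858 at an unadjusted p under 0.05); the labels do not say that a number marks a shared batch, and deviations of same-numbered arrays had r = 0.12 over probe sets.

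Genes near 0 changed sign, none of them called. With the values as deposited Sqle was -0.025, Ebp -0.028 and Scap -0.0060; with median centring Mvd was 0.014, Insig2 0.022 and Abcg1 0.051; with probe sets averaged Insig2 was 0.011. Leaving out 1 array gave ranges of -0.18 to 0.18 for Mvd, -0.075 to 0.12 for Sqle, -0.051 to 0.087 for Ebp, -0.11 to 0.020 for Insig2 and -0.10 to 0.025 for Abcg1. Scarb1 on its brightest probe set passed with median centring, an offset of 64, either filter and the intensity trend, with adjusted p from 0.0050 to 0.21 over all settings that use that probe set. The counts of probe sets have no value with probe sets averaged. Readings near 16, as for 1 Cyp51 and 2 Fdft1 probe sets, limit what can be seen there.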
